A study of Homo sapiens with 12 samples.

Results

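The MHC class I antigen presentation genes comprised 9 genes, HLA-B, HLA-C, HLA-E, B2M, TAP1, TAP2, TAPBP, PSMB8 and PSMB9, of the 20595 genes in the counts table. They were chosen by symbol, each through 1 Ensembl identifier of the primary assembly. RNA-seq was carried out on A549 and H1792, human lung adenocarcinoma cell lines that both carry amplified MDM2, with wild-type p53 in A549 and mutant p53 in H1792. Each line was treated for 48 h with the vehicle DMSO or with 1 μM RG7112, a small molecule that binds MDM2 and keeps it from p53. This gave 4 groups of 3 samples, 12 in all. With 1 line for each p53 status, p53 and all else that separates the lines cannot be told apart, and the labels do not say that replicates were separate cultures, so p-values measure only the spread between these samples.

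MHC class I molecules carry peptides from inside the cell to its surface, where CD8 T cells read them. Proteasomes, in part the immunoproteasome with its interferon-inducible catalytic subunits, cut proteins into peptides, the TAP1 and TAP2 transporter moves the peptides into the endoplasmic reticulum, and tapasin, the product of TAPBP, helps to load them onto a heavy chain paired with beta-2 microglobulin. The genes are known to be induced by interferons through interferon regulatory factors and by the class I transactivator NLRC5, and their loss is a known route by which lung tumors escape T cells.

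Sequencing gave 2011916 to 6218825 counts per sample, so that 3 counts, the floor used below, stood for 0.464 to 1.43 counts per 1000000 counts (CPM, scaled between samples by TMM). The p53 targets CDKN1A and MDM2, the latter also the target of the drug, were higher with RG7112 in A549, by 3.58 (SE 0.70, edgeR adjusted p = 0.0252) and 2.99 (SE 0.45, adjusted p = 0.0102) on the log2 scale. Neither passed the test in H1792 (log2 fold changes 0.15 and -0.05, adjusted p = 0.882 and 0.928). Without replicate 2 of A549 DMSO, neither passed in A549 (edgeR adjusted p = 0.096 and 0.0534), and CDKN1A also missed without replicate 1 or 3 of that group. Without replicate 3 of A549 RG7112, the CDKN1A log2 fold change was 2.41 (edgeR adjusted p = 0.00914). Replicate 3 stood apart in both A549 groups, differing from replicates 1 and 2 by 17.2 to 25.6 times counting noise, whereas these 2 differed from each other by 5.38 and 5.93 times. The epithelial keratins KRT8, KRT18, KRT19 and KRT7 had 125 to 73664 counts in every sample, whereas EPCAM had at most 35 and CDH1 at most 4 in H1792. Of 6 leukocyte markers, CD14 was counted in A549 at 28 to 109 and the other 5 at most at 1 in any sample. COL1A1 and COL1A2, listed as fibroblast markers, had 578 to 5924 counts in H1792 samples, whereas DCN and LUM of the same list had at most 3 and 1.

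The rows of most of the 9 genes held few counts. TAP1 had 3385 counts over the 12 samples, B2M 1067, TAPBP 173, HLA-C 159, TAP2 127, HLA-E 78, PSMB8 26, HLA-B 23 and PSMB9 5. The filter on low counts left 4 of the 9 in the A549 comparison (HLA-C, HLA-E, B2M and TAP1), 3 in the H1792 comparison (B2M, TAP1 and TAP2) and 5 in the fit over all samples. HLA-B, TAPBP, PSMB8 and PSMB9 were never tested in these fits. EEF1A1, a translation factor that every cell needs, also had only 24 to 98 counts per sample, so a low row is given here as what that row holds and not as the output of the gene. On chromosome 6 between 29 and 34 Mb, where 8 of the 9 genes lie, 68 of 164 protein-coding genes (41.5%) had at most 3 counts in every sample, against 24.7% of the 17832 protein-coding genes elsewhere. Genes that these cells do not express were not set apart in either share, and the cause of the difference was not tested. HLA heavy chain genes are close copies of each other with alternate copies in the genome build, and how reads were divided among them was not tested.

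TAP1, the gene with the most counts, encodes 1 of the 2 subunits of the peptide transporter. It lies on the minus strand at chr6:32845209-32853978 (GRCh38), where the annotated PSMB9 gene runs over it on the opposite strand. PSMB9 codes for an immunoproteasome subunit and is read away from TAP1, their start sites lying close together, and TAP2, the gene of the other transporter subunit, lies near by at chr6:32821833-32838780. Among the class I genes tested, TAP1 was the only gene called under the drug. PSMB9 starts beside it and TAP2 codes for its partner, so the start regions of these 3 genes are shown. Each covers 250 bases before and 50 bases after a RefSeq start site (build GRCh38.p14), at chr6:32853655-32853954 (minus strand), chr6:32853942-32854241 (plus strand) and chr6:32838690-32838989 (minus strand), and capitals mark matches on either strand to the interferon-stimulated response element (ISRE) core GAAANNGAA, the gamma-activated site (GAS) TTCNNNGAA, the cyclic AMP response element (CRE) core TGACG, the NF-kB consensus or the p53 half-site.
TAP1: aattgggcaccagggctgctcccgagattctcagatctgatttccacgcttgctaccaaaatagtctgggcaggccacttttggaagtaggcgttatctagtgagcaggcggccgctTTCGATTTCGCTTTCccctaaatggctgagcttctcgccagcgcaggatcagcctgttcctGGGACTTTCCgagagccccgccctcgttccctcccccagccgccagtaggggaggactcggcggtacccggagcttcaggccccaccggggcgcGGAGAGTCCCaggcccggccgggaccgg
PSMB9: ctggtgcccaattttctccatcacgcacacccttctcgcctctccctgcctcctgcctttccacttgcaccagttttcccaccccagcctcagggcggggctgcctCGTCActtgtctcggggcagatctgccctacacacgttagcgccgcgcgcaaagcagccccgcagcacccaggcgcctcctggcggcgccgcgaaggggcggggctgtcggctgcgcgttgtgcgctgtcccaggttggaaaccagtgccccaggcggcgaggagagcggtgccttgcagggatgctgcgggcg
TAP2: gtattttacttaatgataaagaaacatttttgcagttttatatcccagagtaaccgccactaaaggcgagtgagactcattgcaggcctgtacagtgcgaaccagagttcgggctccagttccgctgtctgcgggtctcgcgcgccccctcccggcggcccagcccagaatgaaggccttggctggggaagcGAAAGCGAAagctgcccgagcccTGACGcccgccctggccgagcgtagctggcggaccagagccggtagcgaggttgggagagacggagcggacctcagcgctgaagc

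The TAP1 window held 2 ISRE cores that overlap by 3 bases, beginning 133 and 127 bases before the start site, and 2 NF-kB matches, beginning 72 bases before it and at base 23 of the gene. The PSMB9 window held 1 CRE core, and the TAP2 window held 1 ISRE core, 58 bases before the start, and 1 CRE core. Windows were given for 8 of the 9 genes, 10 windows in all, and HLA-E had none. The ISRE core was found in windows of TAP1, TAP2, TAPBP, B2M and PSMB8, and in 8.11% of all 35116 windows of this kind. An NF-kB match was found for HLA-B, HLA-C, TAP1, TAPBP and B2M, against 11.3% of all windows. The CRE core was found for HLA-B, HLA-C, TAP2, PSMB8, PSMB9 and B2M, against 24.6%. The GAS was found only in the second windows of TAP1 and PSMB8, among the 10 windows, and the background was 7.66%. The CCAAT box, CCAAT, not capitalised above, was found for HLA-B, HLA-C, TAP1, PSMB9 and B2M, and in 34.6% of all windows. No window of these genes held the p53 half-site, which 6.63% of all windows did. These matches are letters in a window and were not tested as binding sites.

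TAP1 was higher with RG7112 in A549. Its level was 48.6, 32.5 and 52.4 CPM in the DMSO samples (156, 191 and 211 counts) and 108, 98.4 and 126 CPM in the RG7112 samples (702, 207 and 466 counts). Every treated A549 sample lay above every DMSO sample, with means of 111 ± 14.1 against 44.5 ± 10.6 CPM (SD, n = 3). The log2 fold change was 1.32 (SE 0.22, 95% interval 0.80 to 1.85, edgeR quasi-likelihood test, adjusted p = 0.0141). In this comparison 4.35% of the 10739 genes tested were called higher and 4.03% lower, and of the 4 class I genes tested 1 was higher and none lower. At an unadjusted p under 0.05 none was lower either, and DESeq2 called none lower. Without replicate 1 of A549 DMSO the adjusted p was 0.057 (log2 fold change 1.38), and without replicate 1 of A549 RG7112 it was 0.0549 (1.34). Without replicate 3 of both A549 groups the log2 fold change was 1.38 (edgeR adjusted p = 0.0263). With a correction for GC content it was 1.16 (edgeR adjusted p = 0.0144). Fold changes in A549 were higher for genes of higher GC content (Spearman's rho 0.256 over 9941 genes, a description across genes, which are not independent).

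In H1792, TAP1 was lower with RG7112. The DMSO samples had 72.4, 92.9 and 81.4 CPM (206, 403 and 187 counts) and the RG7112 samples 56.5, 38 and 51.8 CPM (219, 214 and 223 counts). The treated samples all lay below the DMSO samples, with means of 48.7 ± 9.61 against 82.2 ± 10.2 CPM (SD, n = 3). The log2 fold change was -0.68 (SE 0.17, 95% interval -1.10 to -0.27, edgeR adjusted p = 0.025). Here 16.5% of the 9914 genes tested were called lower and 17.7% higher, and of the 3 class I genes tested 1 was lower and none higher, neither by DESeq2 nor at an unadjusted p under 0.05.

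The decrease of TAP1 in H1792 depended on the settings. A correction for GC content gave a log2 fold change of -0.31 (edgeR adjusted p = 0.201). The TAP1 transcript had a GC content of 57.5%, against a median of 48.9% over the genes tested in H1792, and fold changes in that line were lower for genes of higher GC content (Spearman's rho -0.495 over 9165 genes, a description across genes, which are not independent). The call was also lost when 1 of 4 libraries was left out, with edgeR adjusted p values of 0.0834 without DMSO replicate 2, 0.0675 without DMSO replicate 3, 0.0549 without RG7112 replicate 2 and 0.0569 without RG7112 replicate 3. Scaling by library size alone gave -0.42 (adjusted p = 0.087), but this scaling also moved the median of all genes to 0.27, and relative to that median TAP1 stood at -0.69 under both scalings.

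The response of TAP1 differed between the cell lines. Its log2 response in A549 exceeded its response in H1792 by 2.08 (SE 0.30, 95% interval 1.43 to 2.74, edgeR interaction test over the 12 samples, adjusted p = 0.00122). It stayed past the threshold under all 21 alternative fits run, at 1.59 to 2.22 with adjusted p of at most 0.0137. In this test 10.4% of the 11666 genes were called with a higher response in A549 and 11.4% with a lower one. Of the 5 class I genes in the fit, TAP1 was the 1 called, and the difference for HLA-E could not be estimated because all its H1792 samples were at 0. HLA-C and TAP2 entered the fit through 1 line only, so this count says nothing about them.

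**Figure D1:**
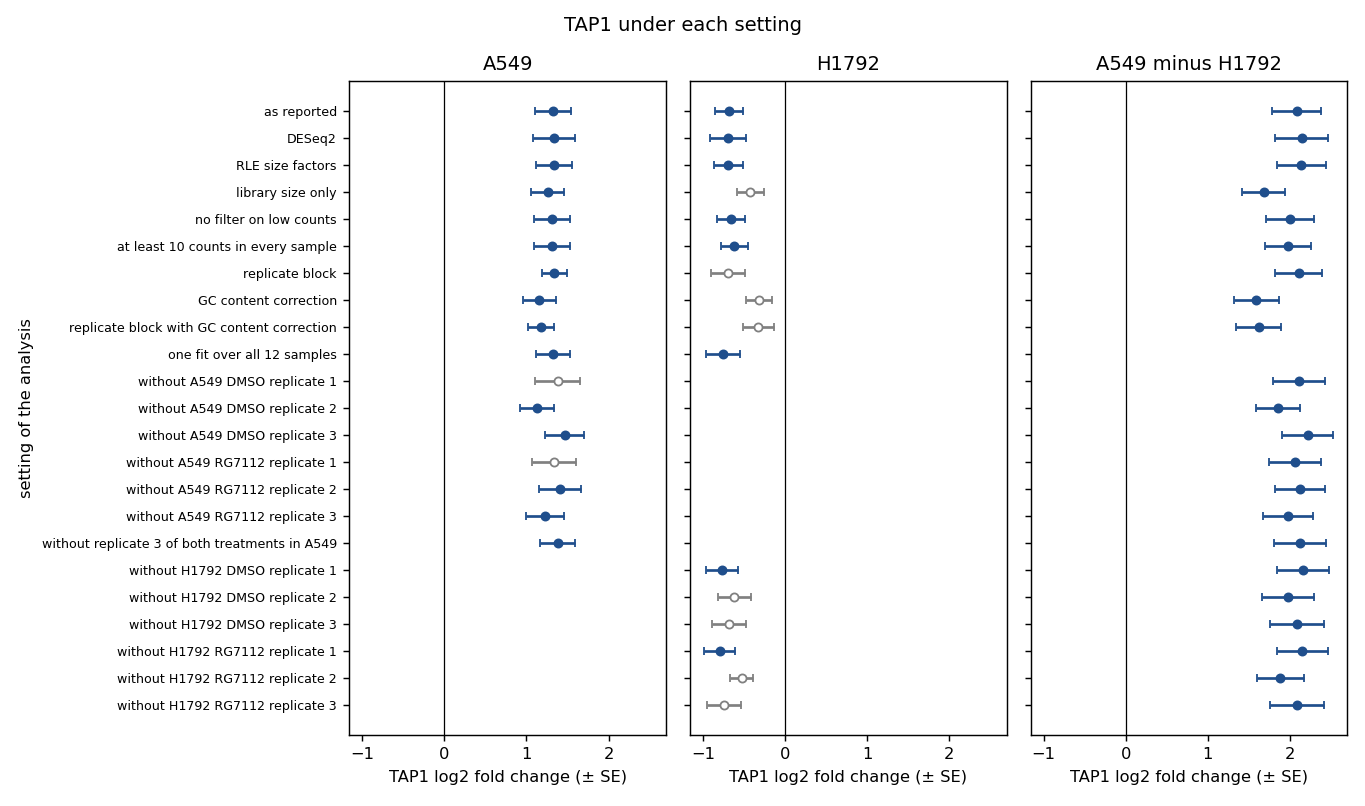
Log2 fold change of TAP1 (horizontal axis, points with bars of 1 SE) under each setting of the analysis (vertical axis) for RG7112 against DMSO in A549, in H1792 and for the difference between the lines. Filled points passed an adjusted p of 0.05 and open points did not, and the difference between the lines was filled throughout, from 1.59 to 2.22.

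In DMSO, TAP1 was lower in A549 than in H1792, with a log2 difference of -0.89 (SE 0.21, edgeR adjusted p = 0.00495). It passed the threshold in every alternative fit, at -1.03 to -0.63. Ordered by mean level, A549 with RG7112 stood highest, followed by H1792 with DMSO, H1792 with RG7112 and A549 with DMSO. The last 2 overlapped, at 38 to 56.5 and 32.5 to 52.4 CPM. A549 with RG7112 and H1792 with DMSO did not overlap, but the difference between these groups was not tested. Over the 12 samples the genes whose log2 CPM followed TAP1 most closely were TTYH3 (Pearson r = 0.957) and GAA (r = 0.936), out of 10747 genes, given as a description of samples that share cell lines and libraries.

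TAP2 had 2 to 21 counts per sample. In A549 its level was 1.25, 1.02 and 1.99 CPM with DMSO and 1.24, 0.95 and 1.62 CPM with RG7112, and the groups overlapped. Its A549 counts were too low for the filter. In H1792 it was 4.57, 4.84 and 5.22 CPM with DMSO and 2.84, 3.02 and 4.41 CPM with RG7112. These groups did not overlap, but the log2 fold change of -0.43 (SE 0.34, 95% interval -1.23 to 0.37) did not pass the test (edgeR adjusted p = 0.358). Every A549 sample lay below every H1792 sample. The fitted log2 difference of A549 minus H1792 in DMSO was -1.77 (SE 0.42), given without a test because TAP2 entered the fit over all samples only through H1792, where it was higher. The fitted difference in response between the lines was 0.39 (SE 0.60), given without a test for the same reason. Per kilobase of transcript, TAP1 stood at 15 ± 3.57 CPM per kb in A549 DMSO and TAP2 at 0.25 ± 0.089, and in H1792 DMSO at 27.8 ± 3.46 and 0.858 ± 0.0575 (SD, n = 3). The rows of the 2 transporter subunits held unequal levels in both lines. CTPS2 (r = 0.982) and CLEC2B (r = 0.975) had the most similar pattern to TAP2.

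TAPBP, which codes for tapasin, had at most 2 counts in any A549 sample and at most 3 in any H1792 DMSO sample. In H1792 with RG7112 it had 4, 102 and 61 counts (1.03, 18.1 and 14.2 CPM). Replicates 2 and 3 stood far above every other sample in the series, and replicate 1, at 1.03 CPM, lay within the range of the DMSO samples, 0 to 1.05 CPM. Summed over the 3 libraries of each group, the ratio was 28.6 (exact 95% interval 11 to 106, which covers counting error only and not the spread between replicates). The gene did not pass the filter. With no filter on low counts its log2 fold change was 4.66 (SE 1.29, edgeR adjusted p = 0.0472).

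B2M codes for the light chain shared by all class I molecules and lies outside the region of the other genes, at chr15:44711487-44718877. In A549 it was 11.2, 19.2 and 4.72 CPM with DMSO and 9.42, 16.6 and 14.9 CPM with RG7112, a log2 fold change of 0.19 (SE 0.51, 95% interval -1.02 to 1.40, edgeR adjusted p = 0.864). The A549 groups overlapped. In H1792 it was 14.8, 9.68 and 79.6 CPM with DMSO and 28.6, 37.1 and 37.4 CPM with RG7112. DMSO replicate 3 was the highest of all 12 samples, and the other 2 DMSO samples lay below every treated H1792 sample. The log2 fold change in H1792 was 0.08 (SE 0.76, 95% interval -1.73 to 1.89, edgeR adjusted p = 0.945). Without DMSO replicate 3, it was 1.58 (edgeR adjusted p = 0.0213). In DMSO, the log2 difference of A549 minus H1792 was -1.52 (SE 0.71, edgeR adjusted p = 0.101), and -0.04 without that library (adjusted p = 0.954), but without H1792 DMSO replicate 2 it was -1.99 and passed (adjusted p = 0.0343). The difference in response between the lines was 0.17 (SE 0.99, edgeR adjusted p = 0.935). KLF6 (r = 0.900) and ZNF333 (r = 0.860) were most like B2M over the samples.

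HLA-C and HLA-B code for classical heavy chains, which present peptides to CD8 T cells, and HLA-E for a nonclassical one that is known to engage NKG2A on natural killer cells. HLA-C was 3.11, 6.47 and 3.73 CPM in A549 with DMSO (10, 38 and 15 counts) and 5.72, 4.75 and 7.04 CPM with RG7112. The groups overlapped, and the log2 fold change of 0.38 (SE 0.41, 95% interval -0.59 to 1.36) did not pass the test (edgeR adjusted p = 0.636). In H1792 it had 0, 6 and 0 counts with DMSO and 8, 8 and 1 with RG7112, at most 2.06 CPM. All A549 samples lay above all H1792 samples. No test of the difference in DMSO is given, because HLA-C entered the fit over all samples only through A549, where it was higher. The fitted difference in response was -0.69 (SE 1.21), also given without a test, since it rests on 0 to 8 counts in H1792. ZNF182 (r = 0.974) and MOCS1 (r = 0.965) were most like HLA-C.

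HLA-E had 0, 20 and 14 counts in A549 with DMSO (0, 3.4 and 3.48 CPM) and 10, 24 and 10 counts with RG7112 (1.54, 11.4 and 2.71 CPM). The groups overlapped, with a log2 fold change of 1.02 (SE 1.10, 95% interval -1.57 to 3.61, edgeR adjusted p = 0.634). It had no count in any of the 6 H1792 samples, which allows at most 0.533 to 1.3 CPM per library (3 counts of the total, counting error only). Against 3 counts per library in H1792, the mean in A549 was thus at least 2.26-fold higher in DMSO, or at least 1.67-fold to 3.38-fold when 1 A549 library was left out. With RG7112 it was at least 7.82-fold higher, and at least 3.19-fold higher without A549 RG7112 replicate 2, the sample at 11.4 CPM. These bounds cover counting error only and not the spread between replicates, and A549 DMSO replicate 1 had 0 counts, as the H1792 samples did. The bounds hold for this row and not for the output of the gene. How reads were divided among HLA genes and their alternate copies in each line was not tested. HLA-E too entered the fit over all samples only through A549, and no test between the lines is given. HYAL1 (r = 0.964) and GAS7 (r = 0.954) were most like HLA-E. HLA-B had 0 to 4 counts in A549 and 1 to 6 in H1792, with at most 1.06 CPM in any sample, and a difference was not detectable at these counts.

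PSMB8 and PSMB9 code for immunoproteasome subunits that replace PSMB5 and PSMB6 of the constitutive proteasome. PSMB8 had 0 to 5 counts per sample and PSMB9 0 to 2, and differences between groups were not detectable at these counts. The ratio of PSMB8 to PSMB5 counts within a library was 0 to 0.0119 over the 12 samples. For PSMB9 to PSMB6 it was 0 to 0.2, on only 5 to 45 counts of PSMB6. PSMB5 itself was lower with RG7112 in H1792 (log2 fold change -0.47, SE 0.12, edgeR adjusted p = 0.0294), a call that was lost in 8 of 15 alternative fits. The third inducible subunit, PSMB10, was counted at 48 to 416. Its ratio to PSMB7, which it replaces, was 13.8 to 18.1 in H1792 DMSO and 5.94 to 9.5 in H1792 RG7112, without overlap, whereas in A549 the ranges overlapped, at 8.09 to 13.4 and 2.67 to 22.7. PSMB7 had 5 to 50 counts. In A549 DMSO the rows of PSMB5, PSMB6 and PSMB7 held means of 225, 7.5 and 2.74 CPM. The ratios thus describe these rows and not the output of the genes, and they were not tested or corrected for GC content. The fall of PSMB10 in H1792, given below, depended on the settings.

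Across the lines in DMSO, TAP1 and B2M were the 2 class I genes with at least 10 counts in every sample, and of these TAP1 was called lower in A549, as were 22.0% of all 11666 genes, while 25.6% were called higher. The fit also held HLA-C, HLA-E and TAP2, each through the line where it was higher, so a count over the 5 tested says nothing about the members. That count was 3 of 5 by edgeR, and 4 both by DESeq2 and at an unadjusted p under 0.05, and it is no test of HLA-C, HLA-E or TAP2. Under RG7112 the median log2 fold change was 0.70 over the 4 tested in A549 (all genes -0.01) and -0.43 over the 3 tested in H1792 (all genes 0.01). The A549 median lay between HLA-C and HLA-E, whose rows were among the low ones.

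**Figure D2:**
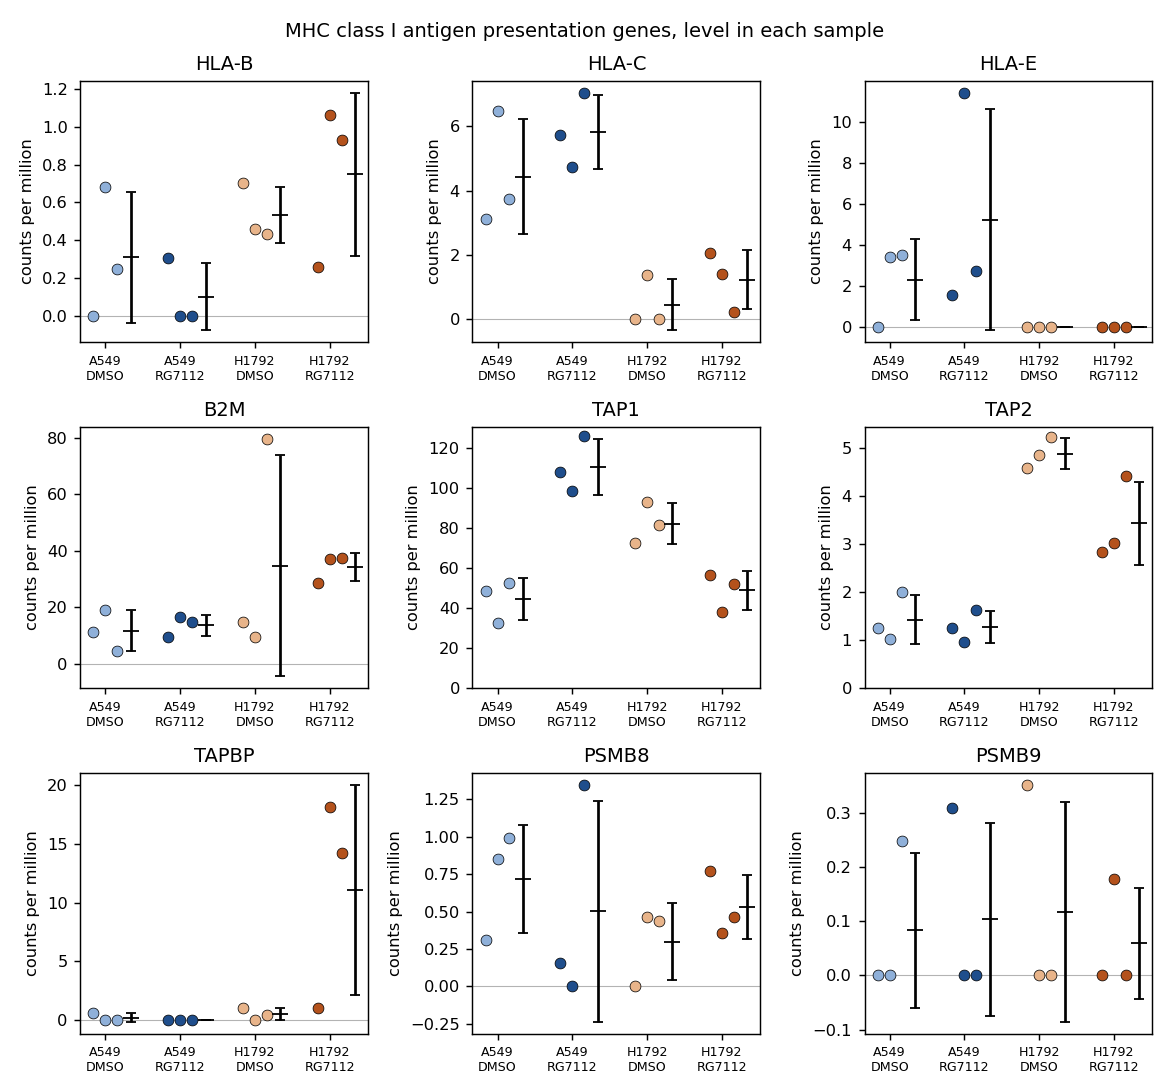
Level of each of the 9 genes in CPM (vertical axis, scaled per gene) in the 12 samples (points, by cell line and treatment). Bars give the mean ± SD of 3 replicates, and for TAP1 the 3 A549 RG7112 samples sit at 98.4 to 126, above all other samples, while HLA-B, PSMB8 and PSMB9 stay at or under 1.35 throughout.

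The other genes of the pathway were described through a list of 17, among them peptide-trimming enzymes, chaperones and transcription factors. In A549, 13 of the 17 were tested, and edgeR called 1 higher and none lower, against 2 and 0 by DESeq2 and 3 and 0 at an unadjusted p under 0.05. Of all genes tested in A549, edgeR called 4.35% higher and 4.03% lower. The 1 called was IRF1, the interferon regulatory factor known to drive class I genes, at 66.7 ± 5.32 CPM with DMSO and 104 ± 9.38 with RG7112 (SD, n = 3). Its log2 fold change was 0.64 (SE 0.15, edgeR adjusted p = 0.0473), and the call was lost in 9 of 16 alternative fits, with adjusted p up to 0.175, including those without any 1 of the 6 libraries. Its direction held in all 16. The difference of the IRF1 response between the lines was 0.76 (SE 0.17, edgeR adjusted p = 0.0129).

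In H1792, 13 of the 17 were tested, of which 2 were higher and 3 lower, and the shares of all genes were the 17.7% and 16.5% given above. ERAP1, which trims peptides in the endoplasmic reticulum, rose from 9.61 ± 1.15 to 40 ± 7.44 CPM (log2 fold change 2.13, SE 0.21, edgeR adjusted p = 0.00282). CANX, the chaperone calnexin, rose from 225 ± 15.9 to 486 ± 61.9 CPM (1.18, SE 0.11, adjusted p = 0.00275). Both calls held in all 15 alternative fits, but with the GC correction the log2 fold change was 1.62 for ERAP1 and 0.74 for CANX. The genes that fell were PSMB10 (log2 fold change -0.66, SE 0.20, edgeR adjusted p = 0.0441), the proteasome activator subunit PSME2 (-0.56, SE 0.11, adjusted p = 0.0106) and RFXANK, a subunit of the RFX complex at MHC promoters (-0.80, SE 0.11, adjusted p = 0.00428). With the GC correction none of the 3 passed (edgeR adjusted p = 0.435, 0.183 and 0.0551), and PSMB10 was lost in 11 of 15 fits. NLRC5 did not pass in either line, with log2 fold changes of 0.41 (SE 0.46, edgeR adjusted p = 0.65) in A549 and -0.22 (SE 0.18, adjusted p = 0.362) in H1792. Of the 14 partner genes in the fit over all samples, 6 were lower in A549 than in H1792 in DMSO, at -1.87 to -0.51 on the log2 scale by edgeR, and none was higher (0 also by DESeq2 and at an unadjusted p under 0.05). In that comparison 22.0% of all 11666 genes were called lower in A549 and 25.6% higher.

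**Figure D3:**
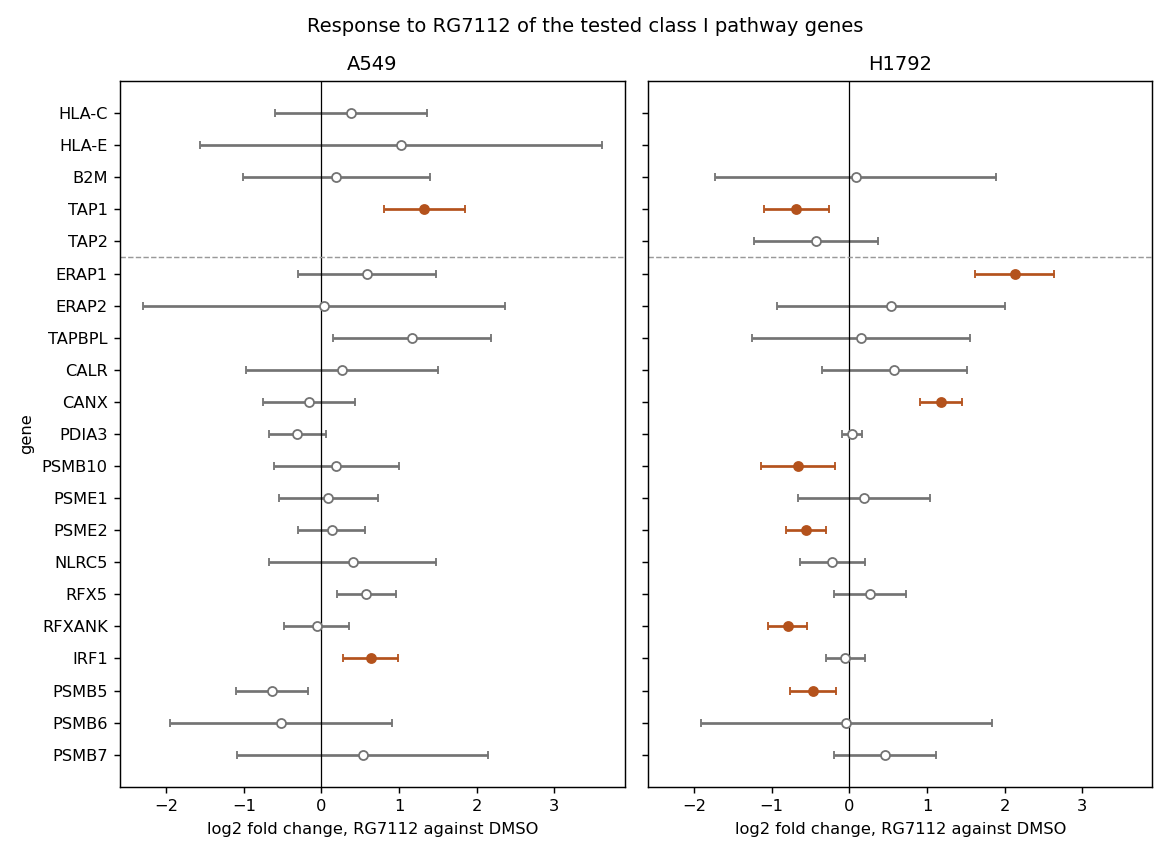
Log2 fold change of RG7112 against DMSO (horizontal axis, with 95% intervals) for the class I genes (above the dashed line), their partner genes and the constitutive proteasome subunits that were tested in A549 and in H1792. Filled points passed an adjusted p of 0.05, TAP1 lies at 1.32 in A549 and at -0.68 in H1792, and a gene with no point in a panel was not tested there.

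Other lists were counted beside the class I genes. For the A549 counts of these lists, the shares of all genes tested in A549 were 4.35% called higher and 4.03% called lower. Of 30 interferon response genes outside antigen presentation, 13 were tested in each line. In A549, edgeR called 2 higher (ISG15 and TRIM22) and none lower (5 and 0 by DESeq2, 7 and 1 at an unadjusted p under 0.05), and in H1792, 1 was higher (IFIH1) and 3 were lower (ISG15, IFI35 and STAT2), all named after their values were seen, where 17.7% and 16.5% of all genes were called higher and lower. Their median log2 fold change was 0.91 in A549 and -0.55 in H1792. Of the 7 epithelial markers, 6 were tested in each line, with 1 higher and none lower by edgeR in A549 (2 and 0 by DESeq2 and at an unadjusted p under 0.05) and none higher and 5 lower in H1792 (0 and 5 by DESeq2, 1 and 5 at the unadjusted p), and their summed level in H1792 went from 1818 to 2187 CPM with DMSO to 1069 to 1336 CPM with RG7112. The leukocyte markers summed to 18.7 to 23.7 CPM in A549 DMSO and 13.3 to 17.6 in A549 RG7112, nearly all CD14, with PTPRC at most at 1 count. In H1792 they summed to at most 1.15 CPM. The 4 class II markers had at most 5 counts in any sample and HLA-DRA none. The part of these lists in the TAP1 values was not tested, and fewer cells of a type and less RNA per cell cannot be told apart in bulk samples.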

How the data were processed

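RNA of 12 samples was poly-A selected and sequenced from both ends (reads of 38 nt per the labels, 150 nt per the methods). The authors estimated transcript abundance with kallisto 0.45.0 on Ensembl GRCh38.95, added it up to genes with biomaRt and deposited expected counts (estimated counts per gene, given as whole numbers) without normalization. The column names write another dose of RG7112, and the dose of the labels was used. One sentence of the study's results gives the p53 status of the lines the other way round from the labels, which were followed. Rows took symbols and positions from GENCODE v29 (GRCh38), which names all but 2584 of the 20595 genes. Rows without a symbol, 3.92% to 4.92% of the counts, stayed in the library totals. No row shared the counts of HLA-C, HLA-E, B2M, TAP1, TAP2 or TAPBP in all samples.

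After filterByExpr (at least 10 counts, 15 in total), genes were scaled by TMM and tested together with the quasi-likelihood test of edgeR 4.0.16 in R 4.3.3, within each line for the treatment and over 12 samples for the difference in response and for DMSO, with Benjamini-Hochberg adjustment and a threshold of 0.05. CPM values used TMM factors over all samples. Intervals are 95%. DESeq2 1.42.0, other scalings and filters, a replicate block, a GC correction and leaving out samples were alternatives. The test was checked on simulated counts with less spread between replicates than these data and larger changes than that of TAP1. The check therefore does not show how the test performs on changes of that size here. Replicates differed by 5.38 to 25.6 times counting noise (chi-square per degree of freedom), so none was taken as a repeat of another library. Genes named by rule were all 9 members, the 2 genes most like each member in the fit over 12 samples, each partner or proteasome subunit called in a treatment comparison, NLRC5 and both p53 targets. PSMB6 and PSMB7 are named as denominators of ratios, and marker genes as checks. Results for 2 other genes listed as partners are not reported here. The members and lists were chosen with earlier results of these data known.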

Additional observations from a re-analysis of the deposited data

Results flagged for a closer look

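Among the class I genes, their partner genes and the p53 targets, the response to RG7112 differed between the cell lines for 8 by the edgeR interaction test. Interferon response and marker genes are not in this count. Of the 5 class I genes tested, 1 was called. Among the 14 partner genes tested, 3 had a higher response in A549 and 2 a lower one. The others called were both p53 targets, which were listed as checks. Of all 11666 genes in the fit, 10.4% were called with a higher response in A549 and 11.4% with a lower one. For TAP1 the log2 response in A549 exceeded that of H1792 by 2.08 (adjusted p = 0.00122), with a fold change above 0 in A549 and below 0 in H1792. It was 3.40 for CDKN1A (edgeR adjusted p = 0.045) and 3.12 for MDM2 (adjusted p = 0.00604), both higher in A549. For IRF1 it was 0.76 (edgeR adjusted p = 0.0129), for PSME2 0.77 (adjusted p = 0.0331) and for RFXANK 0.81 (adjusted p = 0.0175). For ERAP1 it was -1.47 (edgeR adjusted p = 0.036) and for CANX -1.27 (adjusted p = 0.0144), which responded more in H1792. Of the 21 alternative fits, the difference passed in all for TAP1 and MDM2, in 20 for CANX, 19 for IRF1, 15 for RFXANK, 11 for ERAP1, 10 for PSME2 and 6 for CDKN1A. With the GC correction it was -0.78 for ERAP1, -0.68 for CANX, 0.28 for PSME2 and 0.16 for RFXANK, and none of these 4 passed.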

How the results depend on the processing

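Of 296 values of single class I genes under alternatives, 264 kept their direction and side of the threshold, 13 lost a call, 6 gained one and 13 changed direction, none of the last a called value. The count of genes whose response differed between the lines was 1 in all 22 alternatives. The count changed in A549 was 1, except when single libraries were left out (0 to 1). In H1792 it was 1, but 0 with library size only, with the GC correction, with the replicate block, with both and with a fold threshold of 1 on the log2 scale, 2 with no filter on low counts, and 0 to 2 without single libraries. The count that differed in DMSO was 3, but 1 with at least 10 counts in every sample, which left TAP1 and B2M to test, 2 with a fold threshold of 1 on the log2 scale, 4 by DESeq2 and with library size only, and 2 to 4 without single libraries. HLA-C, HLA-E and TAP2 entered that fit only through the line where they were higher, so the DMSO count is no result for them. Directions turned for B2M in H1792 (-0.45 with the GC correction, -0.40 to 1.58 without single libraries) and A549 (-0.185 to 0.768, and -0.283 without both replicates 3), for HLA-E in A549 (-0.179 to 1.520), and for the difference in response of B2M (-0.25 with library size only, -0.24 with the replicate block, -1.32 to 0.72 without single libraries, -0.317 without both A549 replicates 3) and TAP2 (-0.013 with library size only). The cause was not tested. Library size scaling moved the median of all genes to 0.27 in H1792, -0.37 in the difference and 0.35 in DMSO.

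Deviations of samples with the same replicate number correlated at r 0.145, 0.0668 and 0.293 in A549 and -0.0386, -0.0182 and -0.000216 in H1792. The 0.293 belongs to replicates 3, which correlated at -0.232 to -0.14 with the other numbers. Since not every pair was over 0.1, and not every sample correlated best with its own number, the numbers were not taken as a pairing. With it TAP1 was at 1.34 in A549 (edgeR adjusted p = 0.014) and -0.69 in H1792 (adjusted p = 0.0776), and genes called in H1792 went from 3384 to 1840, and to 849 with the GC correction too. In A549, 900 genes were called, 1438 by DESeq2, 1557 in one fit over 12 samples and 321 to 725 without single libraries and 1196 without both replicates 3. In the difference, 2539 were called, 1692 with the GC correction and 1510 with both. Adding alternate copies of a gene was not run, since the annotation pairs none with these symbols. Low counts limit HLA-B, HLA-E in H1792, TAPBP in A549, PSMB8 and PSMB9, whose rows lie at or near 3 counts. Whether depth or the way reads were assigned to these rows kept them low was not tested.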
